A study of Mus musculus with 10 samples.

Results

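The probes described here carry the mouse Zfp genes, the numbered series of zinc finger protein genes. They are the 88 probes, for 82 genes, whose single gene symbol in the platform's probe annotation begins with Zfp and a digit, out of 9078 listed probes. Of these, 9066 had 1 symbol, for 8726 genes. The rule uses names and no measured value, though the series was picked for study with earlier results of these data known. All 82 genes had 1 probe except Zfp60, Zfp275, Zfp316, Zfp318, Zfp558 and Zfp618, which had 2 each. The series set prefrontal cortex RNA of collagen-immunised, arthritic male DBA/1 mice against that of control mice on 2-colour oligonucleotide arrays printed in-house. Mice were 8 weeks old at the first injection, which was intradermal. Collagen mice received type II collagen (100 µl) together with Complete Freund's adjuvant (100 µl) and control mice the adjuvant by itself (200 µl), so the arms also differed in adjuvant volume. Both arms then received LPS, a bacterial cell wall lipid that activates innate immunity, at day 24. Each of the 10 arrays held both RNAs, and the arrays form 5 dye-swap pairs. In a pair 1 array had the collagen RNA on Cy5 and the other had it on Cy3. The titles number the pairs 1, 2, 3, 1 and 2, and the series text gives 3 biological replicates. Pairs 1 and 4 were therefore taken as replicate 1, pairs 2 and 5 as replicate 2 and pair 3 as replicate 3. The labels do not say how many mice stand behind a number, so the 3 values may vary for technical reasons alone, and every p-value refers to that variation.

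Most Zfp genes encode proteins with tandem C2H2 fingers, short loops held by zinc that read DNA bases. Many of these proteins also carry a KRAB domain, which recruits the corepressor Trim28 and with it histone methylation and deacetylation that silence the bound DNA, often a transposable element. The number in a Zfp name is a serial number and not a family, so the series also holds the CCCH-finger proteins Zfp36 and Zfp36l1, which bind AU-rich elements in inflammatory mRNAs and direct their deadenylation, and double-stranded RNA binders such as Zfp346. In RefSeq's annotation of GRCm38.p6, mouse chromosome 7 held 16 of the 82 genes (19.5%, against 7.33% of the genes on the array), chromosome 17 held 11 (13.4% against 4.62%) and chromosome 8 held 10 (12.2% against 5.14%). Zfp54, Zfp51 and Zfp53 followed each other on chromosome 17 and Zfp112 and Zfp235 on chromosome 7 with no other protein-coding gene between them. Finger genes share coding sequence, and since the probe sequences were not used here, hybridisation of a probe to a related gene was not tested.

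Upstream sequence was taken from RefSeq's promoter table (GRCm38.p6), which held 66 of the 82 genes. The 100 bases before the start site are printed for the 3 Zfp genes with the lowest unadjusted p for collagen over control and for Zfp36, the best known member of the immune response, each 5′ to 3′ on the gene's strand with matches to the searched motifs in capitals.
Zfp810, chr9:22307639-22307738, minus strand: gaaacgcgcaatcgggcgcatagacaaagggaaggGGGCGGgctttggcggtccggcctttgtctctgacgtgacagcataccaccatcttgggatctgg
Zfp1, chr8:111643343-111643442, plus strand: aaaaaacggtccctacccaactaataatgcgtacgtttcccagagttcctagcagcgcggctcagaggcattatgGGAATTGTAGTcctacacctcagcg
Zfp131, chr13:119790733-119790832, minus strand, the first of 2 listed start sites: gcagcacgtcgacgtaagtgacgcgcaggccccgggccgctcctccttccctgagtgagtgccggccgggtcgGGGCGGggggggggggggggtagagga
Zfp36, chr7:28379229-28379328, minus strand: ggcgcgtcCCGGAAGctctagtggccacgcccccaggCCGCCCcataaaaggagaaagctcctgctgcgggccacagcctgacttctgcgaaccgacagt
The capitals mark a GC box (GGGCGG) in Zfp810 and Zfp131 and its reverse strand (CCGCCC) in Zfp36, an ETS site (CCGGAAG) in Zfp36, and in Zfp1 the core of the site bound by human ZNF143, on the reverse strand. Motifs were searched on both strands, and no motif contains another. The GC box was found in 32 of the 66 Zfp promoters (48.5%, against 44.0% of 6913 genes of the array), the letters CCAAT in 24 (36.4% against 24.5%) and the ETS site in 11 (16.7% against 8.09%). TATAAA was found in 4 (6.06% against 5.45%), the ZNF143 core in 1 (1.52% against 0.32%) and the cyclic AMP response element TGACGTCA in 0 (0% against 1.76%). The median GC content was 63% in both sets. A match describes these letters only and is not evidence of a bound site.

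Taken over the 10 arrays together, Zfp probes were measured in both channels about as often as the probes of the array at large. Every Zfp probe had a value in both channels on at least 2 arrays. Of all listed probes, 0.39% had one on 0 arrays and 2.10% on 1. The median was 6.5 arrays for Zfp probes (all listed probes 6). On all 10 arrays 16 of 88 were measured in both channels (18.2%, Wilson 95% interval of counting error 11.5% to 27.5%), against 20.3% of all listed probes. The interval takes the probes as independent, although they share arrays. In channel A alone 75 of the 88 had a value on all 10 arrays (85.2%, all probes 81.9%), and in channel B 17 did (19.3%, all probes 20.6%). Per array, 46 to 76 of the Zfp probes had both (52.3% to 86.4%, all probes 45.2% to 85.9%). Single arrays differed in both directions. With collagen on Cy3 in pair 2 the share was 60.2% (all probes 47.2%), and with collagen on Cy5 in pair 4 it was 64.8% (all probes 77.3%). The 6 probes with the fewest, on 2 arrays each, were those of Zfp53, Zfp64, Zfp467, Zfp511, Zfp715 and the second of Zfp558. Zfp467, a transcription factor of bone and fat precursor cells, and Zfp219, a partner of Sox9, are among the 11 probes with no complete dye-swap pair, and so is Zfp292.

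**Figure D1:**
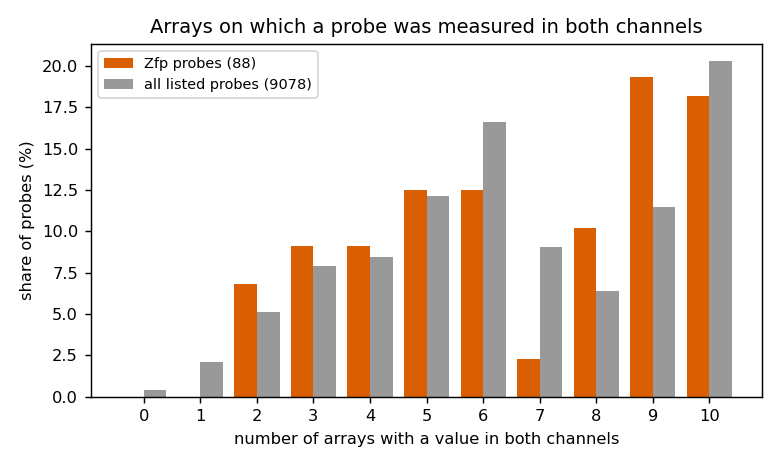
Share of probes (vertical axis, %) by the number of arrays with a value in both channels (horizontal axis), for the 88 Zfp probes and all 9078 listed probes. The Zfp bars are absent at 0 and 1 arrays, where those of all probes stand at 0.39% and 2.10%. They stand at 2.27% for 7 arrays, 19.3% for 9 and 18.2% for 10 (all probes 9.09%, 11.5% and 20.3%).

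Brightness was given as the percentile of a spot among the listed probes of its array, which depends on the probe as well as on the transcript and ranks no gene against another. The median Zfp probe lay at the percentile 36.1 (all probes 42.9), and the middle of the list ran from 25.7 to 51.8 where all probes ran from 24.2 to 67.1. Only 6 of the 88 lay above the percentile 75 (6.82%, against 18.0% of all probes), and 1 above the percentile 90. That 1 was Zfp706 at 98.5, a small C2H2 protein whose loss holds mouse embryonic stem cells in self-renewal. Of the probes measured on all 10 arrays, the next brightest were those of Zfp281 (84.8), Zfp36l1 (68.9), Zfp654 (67.0) and Zfp28 (63.8). Among Zfp probes the tested ones were little brighter than the rest, with medians of 38.4 and 30.3, while over all probes these medians were 63.7 and 28.8. A test needed a value in all 3 replicates, which 41 of 88 Zfp probes had (46.6%, against 45.4% of all), 1 for each of 41 genes. Of the other 47 probes, 40 lacked replicate 3, the single pair, 25 lacked replicate 1 and 16 lacked replicate 2.

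Ratios are log2 of collagen over control after loess normalisation, averaged over the dye swap, and the direction given is the likely one, because the files do not say which channel held which dye. Were the channels the other way round, every sign below would turn and every size would stay. In bulk tissue, fewer cells of a type and less RNA per cell cannot be told apart. No Zfp probe passed the test of collagen against control: 0 of 41 had an adjusted p under 0.05 (limma, Benjamini-Hochberg over 4125 probes), as did 0% of all probes, and adjusted p ran from 0.643 to 0.990. At an unadjusted p under 0.05 there were 3, 1 higher (Zfp131) and 2 lower (Zfp810 and Zfp1), against 6.67% of all probes, 2.42% higher and 4.24% lower. The 41 ratios lay between -0.49 and 0.32 and 33 of them were under 0.2 in size (80.5%, all probes 78.9%). Above 0 lay 22 (53.7%, all probes 45.5%) and below 0 lay 19, with a median of 0.016 (all probes -0.019) that turned to -0.042 with print-tip loess, -0.060 with median centring and -0.014 with scaling between arrays. The median spread between replicates was 0.202 (SD, n = 3), larger than the median size of the ratios, 0.122. Over all probes the spread was likewise the larger, at 0.173 against 0.108. All 3 replicates had the same sign for 13 of the 41 (31.7%), against 35.6% of all probes. A p above the threshold does not show that a gene was equal in both arms.

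**Figure D2:**
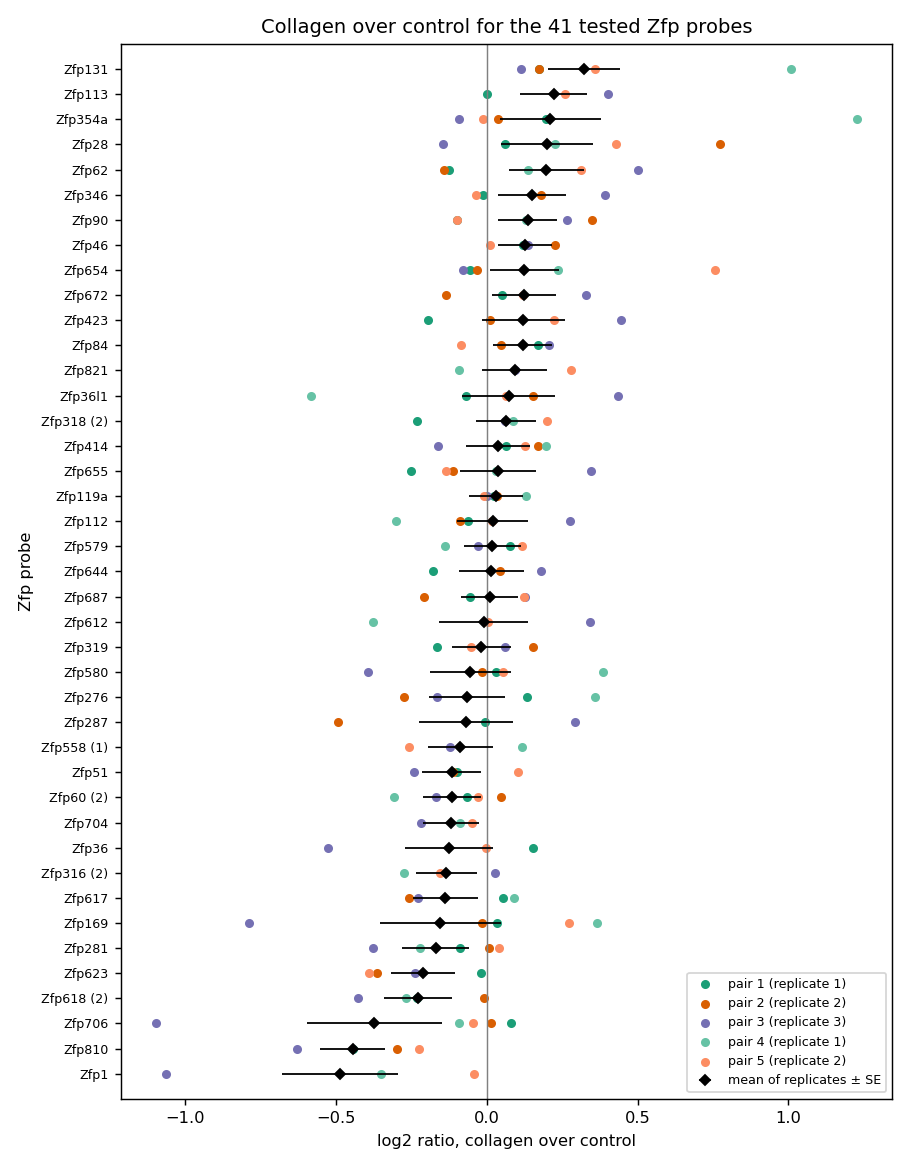
Log2 ratio of collagen over control (horizontal axis) for each of the 41 tested Zfp probes (vertical axis, the probe number in brackets where a gene has 2). Circles are dye-swap pairs coloured by pair, diamonds the mean of 3 replicates with its standard error. The means run from -0.49 for Zfp1 to 0.32 for Zfp131, and the pair 3 and pair 4 circles lie farthest out in several rows.

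Zfp810, a C2H2 gene, had the lowest p of the series. Its ratio was -0.44, -0.30, -0.63 and -0.22 in pairs 1, 2, 3 and 5, and pair 4 gave no value. All 4 pairs lay below 0, and the mean was -0.44 ± 0.11 (SE, n = 3 replicates; unadjusted p 0.0056, limma adjusted p 0.643). Zfp1, a Krüppel-type gene first isolated by its likeness to the Drosophila gene, had values of -1.06, -0.35 and -0.04 in pairs 3, 4 and 5. These lay below 0 but ranged over more than the size of their mean, -0.49 ± 0.19 (SE, n = 3; limma unadjusted p 0.0433, adjusted p 0.643). Both probes sit in the top rows of the array, where most ratios of all probes were below 0. With a loess fitted within each grid (print-tip loess) the mean was -0.23 for Zfp810 and -0.30 for Zfp1, with adjusted p of 0.835 for both in limma.

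Zfp131, which carries a BTB domain beside its fingers, was the only Zfp probe higher at that unadjusted threshold. Its ratio in pairs 1 to 5 was 0.17, 0.17, 0.12, 1.01 and 0.36. All 5 pairs lay above 0, with pair 4 far above the others, and the mean was 0.32 ± 0.12 (SE, n = 3; limma unadjusted p 0.0332, adjusted p 0.643). In pair 4 the array with collagen on Cy5 gave 1.95 and its dye swap 0.06. The print-tip value of Zfp131 was 0.14. Zfp113 followed, with 0.00099 in pair 1, 0.40 and 0.26 in pairs 3 and 5 and a mean of 0.22 ± 0.11 (SE, n = 3). Zfp62 gave -0.13, -0.14, 0.50, 0.14 and 0.31 in pairs 1 to 5, so the pairs disagreed in sign while the replicate means did not, and its mean was 0.20 ± 0.12 (SE, n = 3). The other probes above 0 in every replicate were smaller: Zfp90 at 0.14, Zfp46 at 0.13 and Zfp119a at 0.03, of which Zfp46 turned below 0 with median centring, Zfp119a with median centring and print-tip loess, and Zfp90 in the first reading alone. Adjusted p was 0.643 for Zfp113 and Zfp62 and 0.657 to 0.915 for the other 3 (limma). Zfp46 had the closest replicate values of these (SD 0.010, n = 3), and its pairs 1, 2, 3 and 5 gave 0.12, 0.22, 0.14 and 0.01.

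Zfp706, the brightest probe, was below 0 in all 3 replicates and yet rests on 1 pair. Its ratio in pairs 1 to 5 was 0.08, 0.02, -1.10, -0.09 and -0.05. Pair 3 alone stood apart, and there the array with collagen on Cy5 gave -2.17 and its dye swap -0.02. The mean was -0.37 ± 0.22 (SE, n = 3; limma adjusted p 0.643). Zfp618, whose human counterpart binds the methylcytosine reader UHRF2, gave -0.23, -0.01, -0.43 and -0.27 in pairs 1 to 4 with its second probe, a mean of -0.23 ± 0.11 (SE, n = 3). Its first probe had a value in pair 5 only, -0.18. Zfp623 gave -0.02, -0.36, -0.24 and -0.39 in pairs 1, 2, 3 and 5 and a mean of -0.21 ± 0.11 (SE, n = 3). Zfp704 and Zfp51 were below 0 in every replicate too, each with a mean of -0.12. Limma's adjusted p was 0.643 for Zfp618 and Zfp623, 0.673 for Zfp704 and 0.680 for Zfp51. Zfp51's chromosomal neighbours Zfp54 and Zfp53 were untested, Zfp54 with a single value of 0.14 in pair 1 and Zfp53 with none.

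The CCCH proteins Zfp36 and Zfp36l1 both destabilise AU-rich mRNAs, and Zfp36 (tristetraprolin) limits Tnf in macrophages. Zfp36 gave 0.15 in pair 1 and -0.53 in pair 3, and pair 5 was within 0.01 of 0. The 3 replicates thus had no shared direction, and the mean was -0.12 ± 0.15 (SE, n = 3; limma adjusted p 0.753). Zfp36l1 gave -0.07, 0.15, 0.44, -0.58 and 0.06 in pairs 1 to 5. Its pairs fell on both sides of 0, with a mean of 0.07 ± 0.15 (SE, n = 3; limma adjusted p 0.877). Zfp346, which binds double-stranded RNA, had -0.01, 0.18, 0.39 and -0.04 in pairs 1, 2, 3 and 5 and a mean of 0.15 ± 0.11 (SE, n = 3). Zfp385a, an RNA-binding partner of p53, had 1 pair, -0.12 in pair 5, and was not tested.

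Among transcription factors of development, Zfp423, needed for cerebellar growth and for fat cell fate, gave -0.20, 0.01, 0.44 and 0.22 in pairs 1, 2, 3 and 5 and a mean of 0.12 ± 0.14 (SE, n = 3; limma adjusted p 0.747). Zfp281, a repressor of Nanog in embryonic stem cells, gave -0.09, 0.01, -0.38, -0.22 and 0.04, and its mean was -0.17 ± 0.11 (SE, n = 3; limma adjusted p 0.657). Neither had all replicates on 1 side of 0. Zfp57, which keeps the methylation of imprinted loci, was untested for want of pair 3 and gave 0.11, -0.48, -0.16 and -0.03 in pairs 1, 2, 4 and 5. Zfp42 (Rex1), a marker of embryonic stem cells, gave 1.80 in pair 4 and -0.20 in pair 5. The pair 4 value is the mean of 3.84 with collagen on Cy3 and -0.24 with collagen on Cy5, at a brightness percentile of 11.9. Zfp202, whose human counterpart represses lipid genes, gave 0.64 in pair 5 alone.

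Genes with 2 probes gave no case in which both were tested. Zfp318, known for its part in the switch to IgD expression in B cells, had 0.06 ± 0.10 (SE, n = 3; limma adjusted p 0.822) with the second probe and -0.14 and -0.05 in pairs 4 and 5 with the first. In those pairs the second probe gave 0.09 and 0.20, so the probes disagreed in sign. With print-tip loess the second probe's mean turned to -0.13, and the Zfp318 probes gave -0.04 and 0.01 in pair 4 and 0.05 and 0.15 in pair 5, first probe first. The Zfp60 probes disagreed in pairs 4 and 5 as well, with -0.31 and -0.03 for the second and 0.06 and 0.20 for the first, whereas with print-tip loess both were above 0 in pair 5, at 0.01 and 0.18. The tested Zfp60 probe had a mean of -0.12 ± 0.10 (SE, n = 3; limma adjusted p 0.680). For Zfp275 the first probe gave -0.08 and 0.04 in pairs 3 and 5 and the second 0.47 and 0.05. In pair 3, which both Zfp316 probes cover, the values were -0.13 and 0.03, and the tested one had a mean of -0.13. Zfp558 had a mean of -0.09 with its first probe and no pair with its second. With global loess, and except for Zfp275 in pair 5, these gaps between probes of 1 gene were larger than the median size of the 41 ratios. The measures are unlike, since the gaps lie between single pair values and the 41 ratios are means of 3 replicates.

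Of the other bright probes, Zfp654 gave -0.08 to 0.24 in 4 pairs and 0.76 in pair 5, with a mean of 0.13 ± 0.12 (SE, n = 3; limma adjusted p 0.697). Zfp28, a KRAB gene, gave 0.06, 0.77, -0.15, 0.22 and 0.43 and a mean of 0.20 ± 0.15 (SE, n = 3; limma adjusted p 0.668). In both, the highest pair rests on the array with collagen on Cy3, 1.85 for Zfp654 in pair 5 and 1.57 for Zfp28 in pair 2. The dye-swapped arrays gave -0.34 and -0.02.

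Most values far from 0 came from single pairs. Over the 5 pairs, Zfp probes had 240 pair values and 18 of them were over 0.5 in size. They numbered 0 of 49 in pair 1 (all probes 3.83%), 2 of 43 in pair 2 (2.84%), 8 of 48 in pair 3 (16.6%), 5 of 38 in pair 4 (6.54%) and 3 of 62 in pair 5 (3.42%). Across Zfp probes the SD of pairs 1 to 5 was 0.154, 0.323, 0.425, 0.460 and 0.221, where all probes had 0.232, 0.228, 0.364, 0.297 and 0.217. Pair 1 was thus the narrowest for Zfp probes and pair 4 the widest, but without Zfp42 the SD of pair 4 was 0.368 and pair 3 was the widest. In 11 of the 18 both arrays of the pair lay on the same side of 0 (61.1%, all probes 73.6%), and in 7 they did not. Zfp1, Zfp810, Zfp36 and Zfp169 in pair 3, Zfp36l1 and Zfp354a in pair 4, Zfp202 in pair 5 and Zfp763 in pairs 2 and 4 were among those on the same side, and so were Zfp131 in pair 4 and Zfp706 in pair 3, where 1 of the arrays lay near 0. Zfp639 showed the reverse, with a pair 3 value of -1.34 made of 0.10 and -2.78. Over all pair values the arrays lay on the same side in 38.3% for Zfp probes and 36.2% for all probes. Of the 41 tested probes, 24 had replicate 3 farthest from 0 (all probes 60.7%), and replicate 3 is the one that rests on a single pair. Without replicate 3 the mean was -0.20 for Zfp1, -0.01 for Zfp706, 0.05 for Zfp62, 0.03 for Zfp346 and -0.06 for Zfp281.

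The direction of the Zfp list moved with the place of its probes on the array. In grid rows 1 to 4, 4 of 16 tested Zfp probes were above 0, with a median of -0.12, and of all tested probes there 24.2% were above 0, with a median of -0.11. In rows 5 to 12, 18 of 25 were above 0, with a median of 0.06, against 58.6% and 0.03 for all probes. With print-tip loess the median over the 41 became -0.04 (all probes -0.01), with 14 above 0 and 27 below (all probes 44.5% above). Of the 41, 10 changed sign (all probes 1027 of 4125). The part of array position in the ratios was not tested. In 28 of the 41 the print-tip value was the smaller in size (all probes 2653 of 4125), including Zfp810, Zfp1 and Zfp131.

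**Figure D3:**
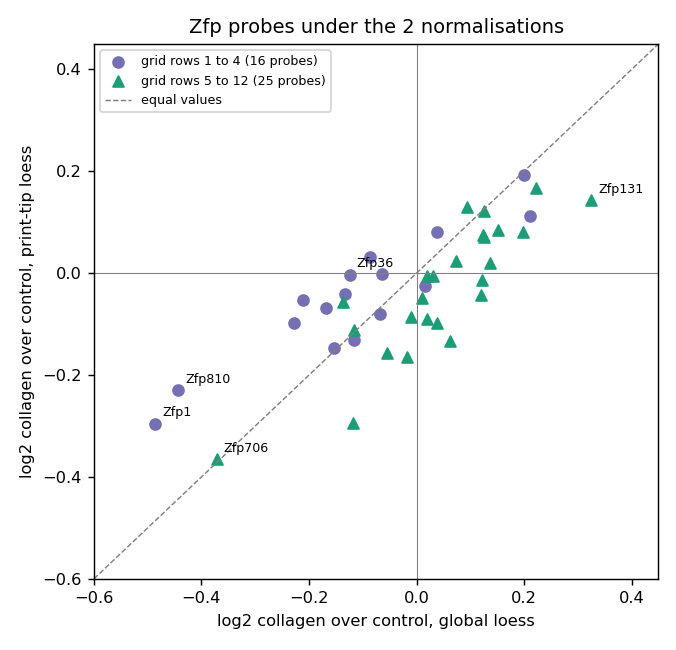
Log2 ratio of collagen over control for the 41 tested Zfp probes with global loess (horizontal axis) and print-tip loess (vertical axis). Circles are the 16 probes of grid rows 1 to 4 and triangles the 25 of rows 5 to 12, and the dashed line marks equal values. Zfp810 moves from -0.44 to -0.23 and Zfp131 from 0.32 to 0.14, while Zfp706 stays near -0.37.

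The ratio of the dyes was set beside that of the conditions. Cy5 over Cy3, averaged over the pairs without turning, was larger in size than collagen over control in 25 of 41 Zfp probes (61.0%, all probes 62.1%). The median size of this dye ratio was 0.126 (all probes 0.161). None of the 41 passed an adjusted p of 0.05 for dye (limma; all probes 2.13%), and 9 had an unadjusted p under 0.05 (all probes 20.1%). The median Cy5 over Cy3 of the Zfp probes lay below 0 on all 10 arrays after global loess, between -0.198 and -0.009, where that of all probes lay between -0.034 and 0.006. With print-tip loess it lay below 0 on 9, the exception being the pair 5 array with collagen on Cy5. A shift common to both arrays of a swap cancels in the pair mean. Zfp142, picked after its values were seen, had a dye ratio far larger than these medians. Turned to collagen over control, its arrays gave 1.38 and -1.12 in pair 1, 0.73 and -1.72 in pair 2 and 1.53 and -1.21 in pair 5, with collagen on Cy3 first. The pair means were 0.13, -0.49 and 0.16.

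**Figure D4:**
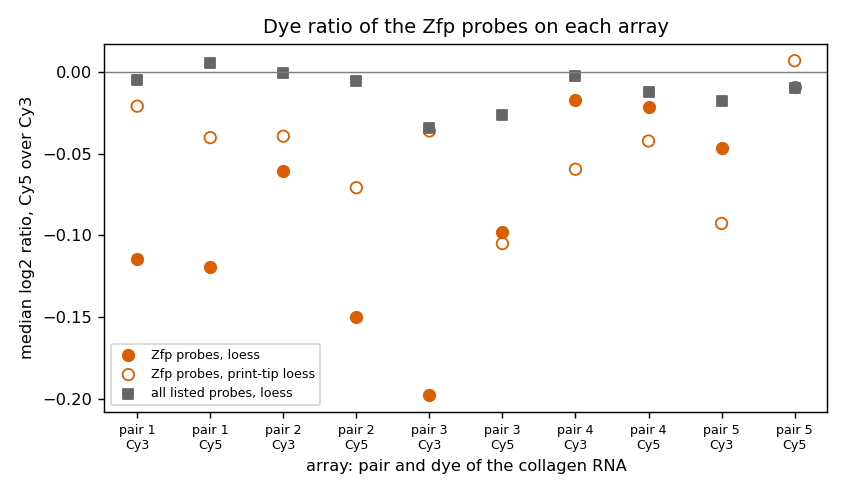
Median log2 ratio of Cy5 over Cy3 (vertical axis) on each of the 10 arrays (horizontal axis, pair and dye of the collagen RNA), for Zfp probes with global loess (filled circles) or print-tip loess (open circles) and for all listed probes (squares). The filled circles lie below 0 on every array, lowest at -0.198, and 1 open circle lies above 0.

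A partner list held 54 genes, for corepressors of KRAB proteins and for deadenylation, decapping and AU-rich binding proteins. Of these 24 had a probe and 13 a tested one. The list is not limited to proteins that act with a Zfp product, since it counts Elavl1. Trim28 itself was not among the 13. None of the 13 passed an adjusted p of 0.05, and 0 had an unadjusted p under 0.05. Their median was -0.048, with 3 above 0 and 10 below (all probes 45.5% above), and -0.086 with print-tip loess, with 1 above and 12 below. Corepressors of the KRAB proteins made up 7 of the 13, with 2 above 0, and deadenylation, decapping and AU-rich binding proteins 6, with 1 above 0. The lowest p among those below 0 belonged to the histone deacetylase scaffold Sin3b (-0.21 ± 0.11), Elavl1, which stabilises AU-rich mRNAs (-0.14 ± 0.11), and Mbd3 of the NuRD complex (-0.17 ± 0.13). Above 0 stood Mphosph8 of the HUSH complex (0.09 ± 0.09), the AU-rich binding protein Hnrnpd (0.07 ± 0.10) and the heterochromatin protein Cbx1 (0.02 ± 0.12), each with SE and n = 3, but with print-tip loess Hnrnpd lay at -0.058, Cbx1 at -0.16 and Mphosph8 at 5.8e-06. Zinc finger genes under other names, such as the Zbtb, Klf and Egr families, had 91 probes and 37 tested ones, 0 of which passed an adjusted p of 0.05 (limma). Their median was -0.081, with 8 above 0 and 29 below. With print-tip loess it was -0.039, with 15 above and 22 below, and the difference from the Zfp list was not tested. On all 10 arrays 9 of the 91 were measured (9.89%).

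The arrays measured 45.2% to 85.9% of the listed probes in both channels, and their number limits the precision of every ratio. Of 8 neuronal markers, which do not by themselves identify cortex, 6 had a tested probe. The synaptic gene Snap25 lay at a brightness percentile of 98.0. The ratios of the 6 neuronal probes had a median of -0.13, with 1 above 0. The microglial and macrophage list had 4 tested probes, 1 above 0, at a median of -0.14, and the choroid plexus marker Kl stood at -0.20. The 2 tested astrocyte markers had a median of -0.068 and the 2 tested oligodendrocyte markers one of 0.14, with 1 above 0 in each list. The striatal marker Tac1 stood at -0.0047, the endothelial marker Cdh5 was untested and no erythroid marker had a probe. No marker passed an adjusted p of 0.05 (limma). Their part in the Zfp ratios was not tested.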

How the data were processed

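Each of the 10 arrays came with 3 readings. Per the file headers, each deposited file gives for every spot an intensity corrected for background in channels A and B, the local background intensity and a flag. Scanner, image software and genome build: not given in the sources used here. The authors' deposited table holds a score per spot, a log ratio of unstated base, and was used only as an alternative. It correlated with the ratios here at 0.417 to 0.815 on the 10 arrays.

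Cy3 was assigned to channel A and Cy5 to channel B, following the order of the labels. Only listed probes with an intensity above 0 in both channels were used, leaving out spots flagged X, Y or Z. With limma 3.58.1 in R 4.3.3, log2 ratios were normalised per reading by global loess (span 0.3), averaged over the readings, turned to collagen over control and averaged within each dye-swap pair, for which both arrays had to have a value, and within each replicate. Probes with all 3 replicates (4125) were tested two-sided with lmFit and eBayes against 0, with Benjamini-Hochberg adjustment over them. The fit was run on simulated, independent normal replicate values with known shifts, and the check required only that their mean size was returned. This does not test error control or power on these arrays. The normexp correction, on intensities with the local background added back, was run only as an alternative, since the deposited intensities were already corrected.

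The members and lists were chosen with earlier results of these data known. Named are the genes with 2 probes, up to 8 tested probes in each direction with 1 sign in all 3 replicates and the lowest p, the 5 brightest, the members of the role lists with a value, and 3 partners in each direction. Zfp142, Zfp169, Zfp354a, Zfp639 and Zfp763, the probes on the fewest arrays, those with no pair named in the text and the chromosomal neighbours were named after their values were seen. Probe names come from the platform's annotation, and all 88 Zfp probes matched RefSeq by Entrez ID. As a check of the replicate grouping, the correlation across probes was 0.0901 for pairs 1 and 4 and 0.141 for pairs 2 and 5. It was 0.0935 on average where the title numbers differed. Pairs 1 and 4 were thus no more alike than pairs of different numbers. The grouping rests on the titles and the series text.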

Additional observations from a re-analysis of the deposited data

Results flagged for a closer look

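Of 33 Zfp probes with a value in 4 or 5 pairs, 3 had a pair value far from the other pairs of the same probe. Chance alone was taken to give about 1 in 20, a nominal rate. The share of all listed probes flagged in the same way is not given here. Over all probes, pairs 3 and 4 held the largest shares of values over 0.5 in size (16.6% and 6.54%). Zfp131 had a log2 ratio of 1.01 in pair 4, the next highest pair being 0.36. Zfp354a (known in rat as Kid-1, a KRAB gene of the kidney) had a log2 ratio of 1.23 in pair 4, the next highest being 0.20. Zfp706 had a log2 ratio of -1.10 in pair 3, the next lowest being -0.09. For Zfp131 and Zfp706 a single array of the dye swap carried the value, 1.95 against 0.06 and -2.17 against -0.02. Zfp354a gave 0.68 with collagen on Cy3 and 1.78 with collagen on Cy5. The causes were not tested.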

How the results depend on the processing

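Of 19 alternatives, all kept the count of Zfp probes with an adjusted p under 0.05 at 0. Over all probes that count was 0, except 1 with scaling between arrays, 1 without replicate 2 and 1 in the authors' processed values. The median Zfp ratio, 0.016, changed most with the normalisation and the reading. It was -0.042 under print-tip loess, -0.060 under median centring, -0.014 with scaling between arrays, -0.0043, -0.025 and -0.076 with reading 1, 2 or 3 alone, 0.038 on probes measured on all 10 arrays and -0.016 in the authors' processed values. Leaving out 1 replicate gave -0.0048 to 0.0071, lowest without replicate 3. A replicate block in a fit to single arrays could use 16 Zfp probes and gave a median of 0.041 (0.029 with a dye term). It changed no call, and the consensus correlation was -0.144. Tested Zfp probes numbered 25 and 19 with reading 1 or 3 alone, 16 on all 10 arrays or with 5 pairs as separate values, and 21 in the authors' values. The share of Zfp probes on all 10 arrays was 1.14% where all 3 readings were needed and 10.2%, 5.68% and 1.14% in readings 1, 2 and 3. The median brightness percentile was 52.8 on probes of all 10 arrays. Ratios changed sign for Zfp119a (-0.0064 print-tip, -0.198 median centring), Zfp318 (-0.13 print-tip, -0.012 reading 1), Zfp423 (-0.013 print-tip) and Zfp558 (0.031 print-tip, 0.087 median centring). Zfp36l1 turned to -0.085 with median centring, -0.031 with the replicate block and -0.0078 with block and dye term. Zfp46 turned to -0.026 with median centring, Zfp654 to -0.0064 without pair 5 and Zfp90 to -0.032 in reading 1. Leaving out a replicate gave Zfp28 -0.0013 to 0.37, Zfp318 -0.0053 to 0.13, Zfp36 -0.26 to 0.076, Zfp36l1 -0.11 to 0.27 and Zfp423 -0.040 to 0.28, crossing 0 without replicate 2 for Zfp28 and Zfp318 and without replicate 3 for the others. Of 24 named ratios, 13 became smaller by over 1.5 times or changed sign without replicate 3, 5 without replicate 2 and 3 without replicate 1, while 3, 2 and 6 became larger by as much. Zfp probes with an unadjusted p under 0.05 numbered 3, and 1 to 4 in the alternatives. Over the 4125 tested probes such p numbered 100 higher and 175 lower. The counts moved by over 1.5 times in at least 1 direction in the settings that follow. With the same 4125 probes they were 125 and 280 with the local background added back. They were 75 and 108 under print-tip loess and 23 and 122 under median centring. In the other settings the number of probes tested differed, so a moved count is not a moved rate. Readings 1, 2 and 3 gave 83 and 115 of 3132, 67 and 107 of 2785 and 83 and 113 of 2601. Without replicate 3 there were 196 and 151 of 5906, without pair 4 63 and 98 of 2778, and without pair 5 50 and 70 of 2595. Of 1845 probes, there were 53 and 58 on probes of all 10 arrays and 92 and 83 with the replicate block. Of the same 1845 there were 62 and 85 with block and dye term and 83 and 85 with 5 pairs. The authors' values gave 79 and 93 of 2939. The causes were not tested. Fewer probes had a value in channel B than in channel A, and a value in both was needed for a ratio.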
